A study of Homo sapiens with 4 samples.

Results

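Mitochondrial ribosomal protein genes are the nuclear genes for the proteins of the mitochondrial ribosome. They were taken as the rows of the table of corrected counts whose symbol is MRPL or MRPS with a number and, at most, a letter A to C. This gave 76 genes of 19973 in the table. 2 further symbols of this form were left out by the rule and are not analysed here. By the known structure of the human mitochondrial ribosome, 49 of the 76 encode proteins of the large subunit and 26 proteins of the small subunit. MRPS18A and MRPS30, in spite of their symbols, belong to the large subunit. MRPS36 is a subunit of the alpha-ketoglutarate dehydrogenase complex and not a ribosomal protein, and was kept because the rule is by symbol.

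The mitochondrial ribosome translates the few messenger RNAs of the mitochondrial genome, all of them for membrane subunits of the respiratory chain and of ATP synthase. All of its proteins are made in the cytosol from nuclear genes and imported, so that nuclear and mitochondrial expression must be matched. Some of them have bacterial counterparts, such as MRPL12, the stalk protein that recruits translation factors, and MRPS12, which lies at the decoding centre. Others, such as MRPL51 or MRPS33, are found only in mitochondria.

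The study asked how lung cancer cells that have passed through the brain differ after growth under osimertinib, an EGFR inhibitor. Single-cell RNA libraries were made from 4 human lines that share 1 origin, with 1 library per line, from cells grown in culture without drug. R2 was derived from brain tumours of mice treated with osimertinib, and C2 from brain tumours of mice given vehicle, both after further rounds of selection of PC9-BrM4 and both then labelled with an eGFP lentivirus. PC9-BrM4, labelled BM4 in the sample list, is a brain-seeking derivative of PC9 that had been selected through repeated rounds of brain colonization in mice. PC9 is the parental lung adenocarcinoma line, with an activating deletion in EGFR, and carried a reporter lentivirus. Independent passages of each line were combined into its library, so the spread between passages cannot be seen. Each line is a cell population with no second library, so differences between lines cannot be told apart from differences between libraries.

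A joint clustering of 24441 cells gave 19 sub-populations (0 to 18), and the deposited tables hold 1 mean per gene and sub-population. By the study's text and plots, sub-populations 5 and 1 are mostly R2, 4 and 0 mostly C2, 6 and 7 mostly PC9-BrM4, and 3 and 2 mostly PC9. In each pair the first named is called mitotic here. This rests on G2/M genes in earlier results of these same data and not on a label of the study. Sub-population 8 holds C2 and R2 cells, and 9 to 18 were given no line here. Sub-populations 0 to 8 held 20660 cells, and the smallest, 18, held 111 cells. The depth of the uncorrected counts relative to the corrected ones was 0.969 to 1.18 in 0 to 8, but 0.405 in 13, 0.456 in 14 and 0.514 in 16. The epithelial markers were present everywhere (EPCAM, CDH1, KRT7, KRT8, KRT18 and KRT19, summed 5231 to 26582 CPM), while fibroblast, endothelial and neural lists did not exceed 7.29, 6.79 and 2.98 CPM in any sub-population. Of the leukocyte list, CD68, which is not restricted to leukocytes, carried a summed level of up to 76.2 CPM, and the other 4 markers stayed below 1 CPM.

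To see what the members share upstream, the reference promoters were read, from 250 bases before to 50 bases after the transcription start. RefSeq windows on GRCh38.p14 were found for 67 of the 76 genes. A site of ETS factors, CCGGAAG on either strand, was present in 28 of 67 windows (41.8%), against 10.7% of all 27305 windows and 16.8% of the 12587 windows of genes in the table. The letters AAGATGGCG, bound by YY1, were present in 12 of 67 (17.9%), against 1.85% of all windows and 3.35% of those of genes in the table. The NRF1 motif GCGCANGCG was also present in 12 of 67 (17.9%), against 8.05% of all windows and 13% of those of genes in the table. An E-box, CACGTG, was present in 5 of 67 (7.46%), against 7.43% and 9.49%. The ETS letters end as the YY1 letters begin, so that a single stretch can count for both. A match is a description of letters and not evidence of binding. The windows of 4 members that recur below are shown, with motif matches in capitals. MRPL51 has the highest level of all members, MRPS33 and MRPL24 had the largest differences between lines in either direction, and MRPS18A carried an ETS and a YY1 match.
MRPL51, chr12:6493213-6493512, minus strand: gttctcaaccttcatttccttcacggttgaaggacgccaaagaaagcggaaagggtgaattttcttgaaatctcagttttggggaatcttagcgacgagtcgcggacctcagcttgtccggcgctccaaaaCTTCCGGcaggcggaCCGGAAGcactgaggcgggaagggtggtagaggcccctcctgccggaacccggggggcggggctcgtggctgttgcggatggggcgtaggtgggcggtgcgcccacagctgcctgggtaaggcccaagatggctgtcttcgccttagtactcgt
MRPS33, chr7:141014903-141015202, minus strand: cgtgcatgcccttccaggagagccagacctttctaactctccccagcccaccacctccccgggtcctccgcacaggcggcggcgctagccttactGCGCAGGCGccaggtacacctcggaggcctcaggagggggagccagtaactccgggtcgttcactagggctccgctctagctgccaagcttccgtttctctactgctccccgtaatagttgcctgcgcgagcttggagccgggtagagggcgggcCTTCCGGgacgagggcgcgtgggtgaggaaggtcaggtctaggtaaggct
MRPS18A, chr6:43687742-43688041, minus strand: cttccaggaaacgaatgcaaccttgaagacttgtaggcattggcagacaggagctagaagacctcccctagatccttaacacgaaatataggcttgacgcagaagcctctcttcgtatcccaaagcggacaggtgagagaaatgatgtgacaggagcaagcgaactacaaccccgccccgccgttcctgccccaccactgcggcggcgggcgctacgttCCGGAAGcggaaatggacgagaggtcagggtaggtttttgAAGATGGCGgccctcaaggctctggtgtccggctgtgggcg
MRPL24, chr1:156741039-156741338, minus strand: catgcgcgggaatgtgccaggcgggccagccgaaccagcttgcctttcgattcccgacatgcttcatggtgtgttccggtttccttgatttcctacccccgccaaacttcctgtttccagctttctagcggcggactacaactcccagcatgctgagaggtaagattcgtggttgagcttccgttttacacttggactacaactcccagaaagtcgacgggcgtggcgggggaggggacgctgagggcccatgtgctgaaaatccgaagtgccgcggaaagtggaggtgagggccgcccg
MRPL51 held 2 ETS matches, MRPS33 an NRF1 and an ETS match, and MRPL24 none of the 4 motifs in this window.

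The levels of the members spanned a wide range. Values are given as CPM, that is corrected UMIs (molecule counts) with each sub-population rescaled to a total of 1000000. Since 3′ libraries count 1 end per transcript, levels were not divided by length. MRPL51 averaged 659 CPM over sub-populations 0 to 7, followed by MRPL12 with 345 CPM, MRPL11, another stalk protein, with 311 CPM, MRPS15 with 293 CPM, MRPL41 with 288 CPM and MRPS34 with 277 CPM. These 6 genes made up 25.4% of the summed level of all members. At the other end, MRPL39 averaged 15.6 CPM, MRPL10, the stalk base protein, 24.5 CPM, MRPS14 25.04 CPM, MRPL30 28.2 CPM and MRPS18A 29.5 CPM. The median over the measured members was 93.9 CPM, and 34 of them reached 100 CPM.

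A gene counted as measured where its mean over the compared sub-populations was at least 10 CPM, which 73 of the 76 members passed. The remaining 3 were MRPL53 (2.74 CPM), MRPS24 (1.64 CPM) and MRPL38 (1.45 CPM). All 3 share most of the end of their transcript with a read-through or overlapping coding gene on the same strand in GENCODE 44, over 380, 425 and 479 of the last 500 exonic bases. Reads that fit more than 1 gene are dropped by the usual counting, so their low values may not be their levels. MRPS5 (478 bases), MRPL46 (363) and MRPL33 (324) also share much of their ends and were measured at 106, 48.0 and 166 CPM.

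Counting error was small for most values. In sub-populations 0 to 8 the 95% Poisson interval of a measured member reached to either side of the value by a median of 3.68% and at most 15.98% of it, and in 9 to 18 by a median of 10.6%. The intervals take corrected UMIs as molecules counted. In 13, 14 and 16 the relative uncorrected depth was 0.405, 0.456 and 0.514, so intervals there are too narrow. These intervals cover counting only and not the spread between cultures, for which there are no replicates, so no test was applied to any comparison. Differences are on the log2 scale, taken between group means of log2(CPM + 5). A gene was called higher or lower where that difference was at least 0.5 and the sub-populations of both groups did not overlap.

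Most members varied little among the 8 large sub-populations. The standard deviation of log2(CPM + 5) over 0 to 7 had a median of 0.17 over the members and 0.25 over all 7397 measured genes. It was under 0.2 for 48 of 73 members. MRPL19 was the steadiest, with a standard deviation of 0.04 and levels between 88.3 and 95.9 CPM. Only 7 members exceeded 0.3, namely MRPS33 (0.59), MRPL24 (0.49), MRPL9 (0.47), MRPL2 (0.37), MRPS21 (0.34), MRPS18A (0.33) and MRPS14 (0.32). Of these 7, all but MRPS33 lie on chromosomes 1 and 6.

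**Figure D1:**
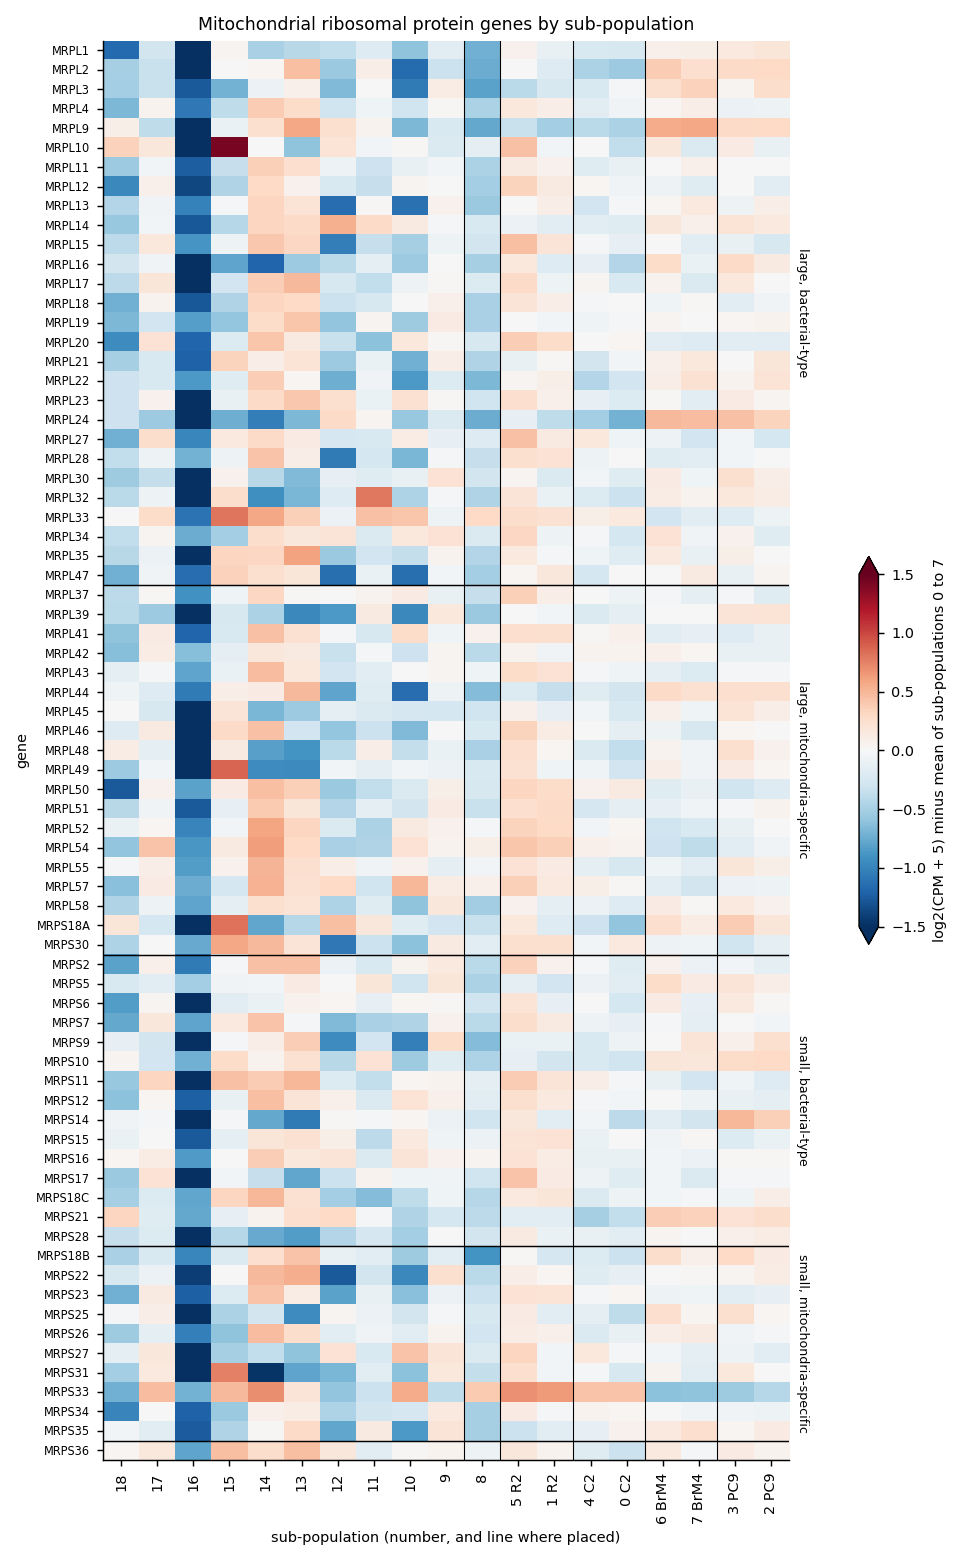
Heatmap of the 73 measured genes (rows, by subunit and ancestry) in 19 sub-populations (columns, with the line where placed). Colour is log2(CPM + 5) minus the mean of sub-populations 0 to 7. Sub-population 16 is blue throughout, MRPS33 is red in the R2 and C2 columns and blue in the PC9-BrM4 and PC9 columns, and MRPL24 and MRPL9 show the opposite.

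Summed over the 76 genes, the level was 9571 and 9000 CPM in R2 sub-populations 5 and 1, 7904 and 7985 CPM in C2 sub-populations 4 and 0, 8520 and 8398 CPM in PC9-BrM4 sub-populations 6 and 7, and 8429 and 8512 CPM in PC9 sub-populations 3 and 2. In these corrected counts both R2 values were thus the highest of the 8 and both C2 values the lowest. The widest 95% Poisson interval among the 8, that of sub-population 7, ran from 8356 to 8440 CPM. The ratio of the summed level of the large subunit to that of the small subunit stayed between 2.14 and 2.25 in 0 to 7, with means of 2.25 in R2, 2.15 in C2, 2.15 in PC9-BrM4 and 2.21 in PC9. The order of the sums differed in the table of uncorrected counts. PC9 sub-population 3 was highest there (14339.9 CPM), followed by R2 5 and 1 (13895.9 and 11695.5 CPM). C2 sub-population 0 was lowest (8728.4 CPM), then PC9-BrM4 7 (9139.2 CPM) and C2 4 (10467.5 CPM).

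The order of the lines depended on what the sum was set against. Values of a line are unweighted means of its mitotic and non-mitotic sub-populations. Mitochondrially encoded transcripts took 16.6% of the corrected counts in R2, 19.7% in C2, 17.4% in PC9-BrM4 and 15.4% in PC9. The mitochondrial percentage was a covariate of the authors' correction. With these transcripts left out of the total, the members' sum was 11134, 9896, 10244 and 10018 CPM in the same order of lines. For every 1000 counts of the 85 cytosolic ribosomal protein genes there were 43.0 counts of members in R2, 45.5 in C2, 40.2 in PC9-BrM4 and 43.2 in PC9. In the corrected counts R2 was therefore highest against all transcripts, but not against cytosolic ribosomal protein genes.

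**Figure D2:**
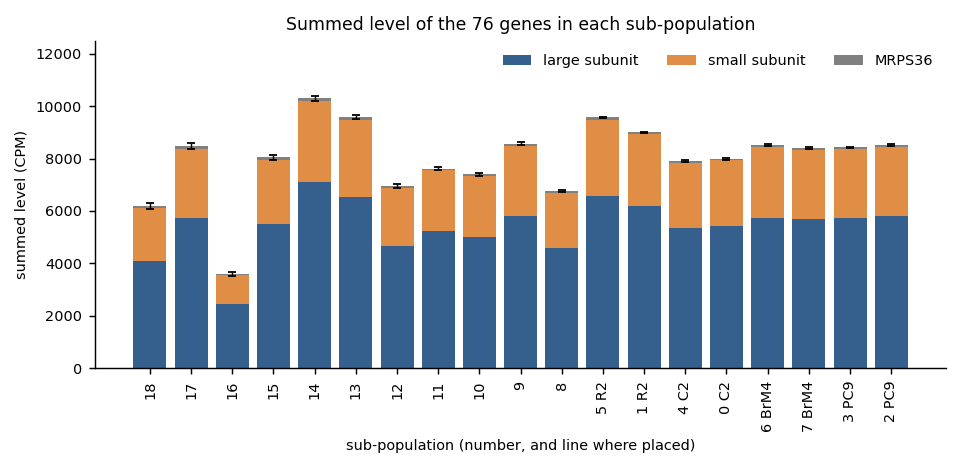
Summed level of the 76 genes in CPM in each sub-population, split into large subunit, small subunit and MRPS36. Error bars are 95% Poisson counting intervals of the whole sum. R2 sub-populations 5 and 1 stand at 9571 and 9000 CPM, sub-population 8 at 6767 CPM and sub-population 16 at 3600 CPM.

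The members were compared between R2 and C2 to see how cells from osimertinib-treated brain tumours differed from those from vehicle-treated ones. Most had slightly larger values in R2, and none passed the threshold. The median difference was 0.23 on the log2 scale, 68 of 73 members were above 0, and in 46 of these both R2 sub-populations exceeded both C2 ones. Over all 7133 measured genes the median difference was -0.02, 47.9% were above 0, and in 23.2% both R2 sub-populations exceeded both C2 ones. No member reached a difference of 0.5 in either direction, where 0.925% of all measured genes were called higher and 9.87% lower. With 1 sub-population left out, up to 6 members were called higher, the 6 without sub-population 1, 3 without 4 and 2 without 0, where 5.87%, 5.72% and 0.8% of all measured genes were called higher. The shift was present in mitotic cells (5 against 4, median 0.28, 68 of 73 above 0) and in non-mitotic cells (1 against 0, median 0.19, 62 of 73 above 0). The large subunit had a median of 0.24 and the small subunit of 0.23.

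MRPL51 had the largest difference, with 782 and 797 CPM in R2 against 547 and 597 CPM in C2, or 0.46. These groups did not overlap, and in sub-population 1 the counting interval was 788 to 805 CPM. MRPL48, of the central protuberance, MRPL22, at the exit tunnel, and MRPS18A each had 0.43 and MRPL2, at the peptidyl transferase centre, had 0.42. MRPL12 had 433 and 376 CPM in R2 against 350 and 329 CPM in C2, a difference of 0.25. The 5 members below 0 were MRPS35 (-0.22), MRPL3 (-0.20), MRPS5 (-0.09), MRPL42 (-0.05) and MRPL44 (-0.05). MRPL3, a core protein of the large subunit, had 189 and 213 CPM in R2 against 215 and 248 CPM in C2.

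Genes with short transcripts tended to have positive differences, and the members are short. Over 6905 genes with a known length, longer transcripts had more negative differences (Spearman's rho -0.64 across genes, which are not independent replicates). The median transcript length was 1288 bases for the members, and 65 of the 76 were shorter than the median measured gene, at 3152 bases. With these genes sorted by length into 4 equal bins, the bin of 207 to 1805 bases had a median difference of 0.25 for its 54 members and 0.23 for its other genes. The bins of longer genes held 8, 8 and 3 members, with medians of 0.20, 0.22 and 0.01, against 0.05, -0.16 and -0.33 for the other genes of each bin. Once each member was set against genes of similar length, the median was 0.05. Nuclear-encoded oxidative phosphorylation genes (72 of 75 above 0, median 0.28) and cytosolic ribosomal protein genes (81 of 83 above 0, median 0.32) had the same direction, and length-adjusted medians of 0.04 and 0.08. In the table of uncorrected counts the members' median was 0.38, against 0.05 over all genes, and 17 members were called higher, as were 6.74% of all genes measured there. Why length and the difference go together was not tested.

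Between C2 and R2 on the one side and PC9 and PC9-BrM4 on the other, the members did not move as a group. The median difference was -0.03, against -0.14 over all 7397 measured genes, with 34 members above 0 and 39 below. MRPS33 was the only member called higher, where 5.79% of all measured genes were, and 2 members were called higher without sub-population 0, 2 or 4, where 6.79%, 5.9% and 5.78% of all genes were. MRPL24, MRPL9, MRPL2, MRPS21 and MRPL44 were called lower, which is 5 of 73 members where 10.7% of all measured genes were lower. The 20 nearest measured genes of each of these 6 had a median with the same sign as the gene.

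MRPS33, a mitochondria-specific protein of the small subunit, had 168 and 163 CPM in R2 and 140 and 139 CPM in C2, against 65.2 and 65.6 CPM in PC9-BrM4 and 69.4 and 75.3 CPM in PC9. The difference of 1.09 was the largest of any member, and the lowest of the 4 high values (counting interval 136 to 143 CPM) lay far above the highest of the low ones (72.6 to 78.0 CPM). Sub-population 8, of C2 and R2 cells, also had 137 CPM. The gene lies on chromosome 7 (chr7:141002610-141015228, minus strand, GENCODE 44 on GRCh38), and the 20 nearest measured genes had a median difference of 0.47. The other measured members on chromosome 7, MRPS17 and MRPL32, had differences of 0.15 and -0.22, and neighbours at 0.08 and 0.60. The sign of MRPL32 was thus opposite to that of its neighbours.

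MRPL24, MRPL9 and MRPS21 lie within the same stretch of the long arm of chromosome 1. MRPL24, a protein at the exit tunnel, had 29.6 and 23.9 CPM in R2 and 21.3 and 18.04 CPM in C2, against 47.6 and 46.9 CPM in PC9-BrM4 and 45.9 and 42.3 CPM in PC9. The difference was -0.86, with no overlap, and the 20 nearest genes had a median of -0.73. MRPL9 had 51.9 and 45.3 CPM in R2 and 49.1 and 46.6 CPM in C2, against 100.2 and 102 CPM in PC9-BrM4 and 82.3 and 82.7 CPM in PC9, a difference of -0.86 with neighbours at -0.62. MRPS21 had a difference of -0.60 and neighbours at -0.66. DAP3, a GTP-binding protein of the small subunit whose symbol the rule does not cover, lies in the same stretch and had -0.81.

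On chromosome 6, 5 of the 6 measured members lie between MRPS18B and MRPL14 on the short arm. All 5 had negative differences, with MRPL2, the only one called, at -0.61, MRPS18A at -0.47, MRPS10 at -0.46, MRPS18B at -0.38 and MRPL14 at -0.30. Their neighbours had medians near -0.5 as well, for example -0.52 around MRPL2. MRPL18, on the long arm of the same chromosome, had 0.13 and neighbours at -0.07. MRPL44, which resembles RNase III and lies on chromosome 2, had -0.51 and neighbours at -0.41. Over the 73 members the difference and the median of the 20 neighbours had a Pearson's r of 0.64 and a Spearman's rho of 0.52, where neighbouring members share neighbours.

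The 3 paralogs of bacterial S18 split by position. MRPS18A and MRPS18B lie in the block of chromosome 6, while MRPS18C, on another chromosome, had a difference of 0.02, with 109 and 111 CPM in R2 and 83.0 and 92.0 CPM in C2, against 94.2 and 96.1 CPM in PC9-BrM4 and 93.2 and 105 CPM in PC9. These groups overlapped. The decoding protein MRPS12 had 0.16 and the stalk proteins MRPL10, MRPL11 and MRPL12 had 0.02, -0.04 and 0.22.

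The next highest members had positive differences under the threshold while their neighbours did not. MRPL54 had a difference of 0.45, MRPL50 0.40, MRPL33 0.37, MRPL20 0.34, MRPL27 0.33, MRPS11 0.33 and MRPL52 0.32, and the medians of their neighbours lay between -0.18 and -0.04. MRPL54 had 124 and 120 CPM in R2 and 97.5 and 96.0 CPM in C2, against 73.5 and 69.4 CPM in PC9-BrM4 and 82.4 and 88.7 CPM in PC9. The groups did not overlap, but the difference stayed under 0.5. With each member set against its neighbours, a step added once the values had been seen, 4 members were called higher and none lower, where 5.17% of all genes treated in the same way were called higher and 3.73% lower.

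The dual metastasis and resistance signature of the study, MetRes, contains 5 members, namely MRPS33, MRPL12, MRPL15, MRPL20 and MRPL27. All 5 were above 0 in R2 against C2 (0.23 to 0.39) and in C2 and R2 against PC9 and PC9-BrM4 (0.22 to 1.09). The study chose the signature on these same cells, so that this is not independent evidence of its direction. In sub-population 8, which with 1 and 5 defined the signature, all 5 were below the C2 and R2 sub-populations, with a median of -0.41. In the table of uncorrected counts MRPL12 (0.16), MRPL20 (0.08) and MRPL27 (0.24) were above 0 in this comparison. MRPL15 (0.0012) was near 0 and MRPS33 (-0.08) below it. MRPL20 also had -0.21 in R2 against C2 in that table.

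**Figure D3:**
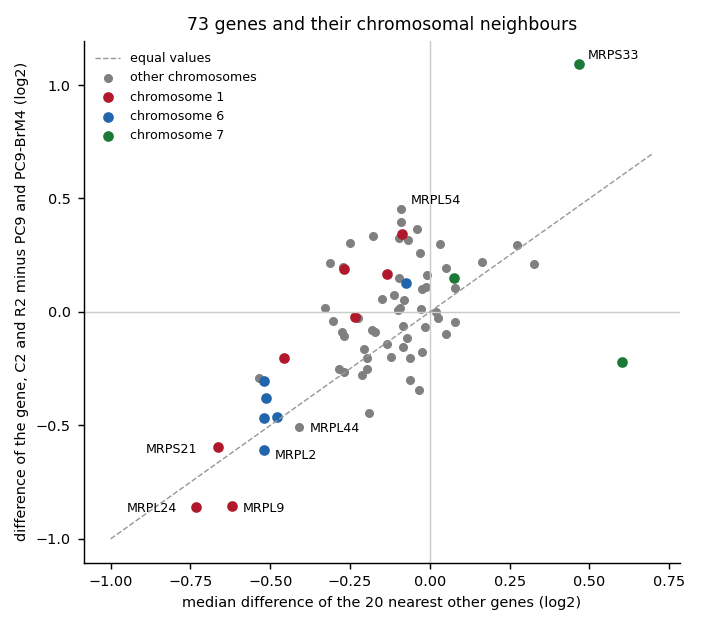
For each of the 73 measured genes, its difference between C2 and R2 on the one hand and PC9 and PC9-BrM4 on the other (vertical axis, log2) against the median difference of the 20 nearest other measured genes (horizontal axis, log2). Points of chromosomes 1, 6 and 7 are coloured and the dashed line marks equal values. MRPL24, MRPL9, MRPS21 and MRPL2 lie with low neighbours, and MRPS33 lies with high ones but above the line.

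PC9-BrM4 and PC9 differed little in these genes. The median difference was -0.03, against -0.11 over all 7568 measured genes, with 30 members above 0 and 43 below. MRPS14, of the small subunit, was the only member called, and was lower, where 3.94% of all measured genes were lower and 0.714% higher. It had 21.1 and 19.3 CPM in PC9-BrM4, against 36.7 and 32.7 CPM in PC9, a difference of -0.66. The lines did not overlap, but the gene was not called with a pseudocount of 20, nor measured at a minimum of 50 CPM. In the uncorrected table the median was -0.25, against -0.20 over all genes, and 8 members were called lower, as were 12% of all genes. MRPS14 lies on chromosome 1 (chr1:175010789-175023425), and its 20 neighbours had a median of -0.49. The next lowest members were MRPL55 (-0.25), MRPL54 (-0.24), MRPL52 (-0.20) and MRPL39 (-0.20). MRPL9, at the other end, had a difference of 0.28, with neighbours at 0.13, followed by MRPL42 (0.16), MRPS26 (0.15), MRPS30 (0.15) and MRPL4 (0.14).

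Sub-population 8 had the lowest summed level of corrected counts among 0 to 8. It had 6767 CPM with a counting interval of 6728 to 6805 CPM, against 7904 to 9571 CPM in the C2 and R2 sub-populations. In the table of uncorrected counts it had 11593.7 CPM, more than both C2 sub-populations (8728.4 and 10467.5 CPM). R2 sub-populations 1 and 5 had 11695.5 and 13895.9 CPM there. In the corrected counts almost all members had values below those of C2 and R2. The median difference was -0.35, against -0.06 over all 7159 measured genes, 71 of 73 members were below 0, and 56 lay below all 4 sub-populations. Of all measured genes, 40.4% were above 0 and 26.2% lay below all 4. At the threshold of 0.5, 9 of 73 members were called lower and none higher, where 6.01% of all measured genes were lower and 3.1% higher, and 15 were lower with sub-population 4 left out, where 5.79% of all measured genes were. The 9 became 5 with a pseudocount of 20, 4 when centred on all genes and 3 when adjusted for length, where 3.2%, 4.26% and 3.97% of all genes were called lower. Against C2 alone the median was -0.22 and against R2 alone -0.46, and against the non-mitotic sub-populations 1 and 0 it was -0.27.

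MRPS18B, of the small subunit, had the largest difference, with 38.7 CPM in sub-population 8 against 77.1 and 63.2 CPM in R2 and 65.5 and 60.05 CPM in C2, or -0.70. MRPL12 had 240 CPM in sub-population 8 (interval 232 to 247), against 433 and 376 CPM in R2 and 350 and 329 CPM in C2, or -0.62, but 0.16 in the uncorrected table. It shares 196 of its last 500 exonic bases with another coding gene of the strand. MRPL1, whose bacterial counterpart forms the other stalk, had -0.60, MRPL3 -0.58, and MRPL18, MRPS34, MRPL22, MRPS9 and MRPL13 completed the 9. Like MRPL12, MRPL13 (0.0546), MRPL18 (0.42) and MRPL22 (0.75) had the opposite sign in the uncorrected table, so that this held for 4 of the 9. The exceptions were MRPL33 with 204 CPM in sub-population 8, against 198 and 194 CPM in R2 and 176 and 183 CPM in C2, and MRPS16, at 0.02. MRPS36, the member that is not a ribosomal protein, had a difference of -0.0009, MRPL55 one of -0.025 and MRPL57 one of -0.074.

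Other mitochondrial and ribosomal genes did not share this pattern evenly. The 83 measured cytosolic ribosomal protein genes had a median of 0.08 and the 13 mitochondrially encoded mRNAs one of 0.12, while oxidative phosphorylation genes had -0.13. The members amounted to 35.6% of the summed level of oxidative phosphorylation genes in sub-population 8, against 40.01 to 43.9% in the C2 and R2 sub-populations. G2/M genes summed to 2012 CPM in sub-population 8, against 3028 to 6482 CPM in C2 and R2, and their part in the result was not tested. In the table of uncorrected counts the members' median was -0.08, against 0.03 over all genes, and 3 members were called lower but 8 higher, where 3.05% of all genes were lower and 15.3% higher. The size of the difference and the low rank of the sum thus rest on the corrected table.

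Mitotic and non-mitotic sub-populations were compared within each line. Members differed little, and less than genes in general. The mean of the 4 within-line differences had a median of 0.06 over the members and 0.18 over all 7397 measured genes, and relative to that shift the members were at -0.12. No member was called in either direction, where 3.8% of all measured genes were called higher and 0.0406% lower. The median was 0.05 in C2, 0.13 in R2, 0.00 in PC9 and 0.06 in PC9-BrM4. All 4 lines gave a positive difference for 37 members (50.7%) and a negative one for 11 (15.1%), against 70.5% and 10.4% of all measured genes. In the uncorrected table the median was 0.31, against 0.29 over all genes, and 10 members were called higher, as were 11.8% of all genes.

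MRPL10 had the largest mitotic difference, 0.37, with 34.5 against 23.2 CPM in R2, 24.2 against 17.4 CPM in C2, 27.8 against 19.98 CPM in PC9-BrM4 and 26.6 against 22.0 CPM in PC9. It was higher in the mitotic sub-population of every line. MRPL16 followed at 0.30, MRPL34 at 0.29, MRPL17 at 0.26 and MRPS18A at 0.24. MRPL3, MRPL47 and MRPL13 were lowest at -0.17 each and were lower in the mitotic sub-population of every line. MRPL21 had -0.16 and MRPS35 -0.14. Members of higher mean level had lower mitotic differences (Spearman's rho -0.62 over 73 members, as a description across genes). Oxidative phosphorylation genes had a median of -0.04, cytosolic ribosomal protein genes one of -0.09 and mitoribosome assembly factors one of 0.24.

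The smaller sub-populations were set against the range of 0 to 7. In the corrected counts of 10 and 12 the members split into those that were clearly low and those that were not. In sub-population 10, 24 of 73 members were called lower and none higher, where 11.6% of all measured genes were lower and 12.4% higher, and the median was -0.28 against 0.04 over all genes. In sub-population 12, 22 members were lower and 1 higher, where 12.4% of all measured genes were lower and 9.16% higher, and the median was -0.30 against 0.06. Both comparisons share sub-populations 0 to 7.

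MRPL47, at the exit tunnel, had 72.7 CPM in sub-population 10 and 72.9 CPM in 12, against 137 to 186 CPM in 0 to 7. MRPL13, of the large subunit, had 65.95 and 65.02 CPM in these sub-populations, against 122 to 166 CPM. MRPS22, of the small subunit, had 32.3 CPM in 10 and 25.6 CPM in 12, against 59.6 to 74.0 CPM. All 3 lay below each of the large sub-populations. MRPL2 (-1.16), MRPL44 (-1.14) and MRPL47 (-1.13) were lowest in 10, and MRPS22 (-1.26), MRPL13 (-1.14) and MRPL47 (-1.13) in 12. Members at the other end were MRPS33 (0.56), MRPL57 (0.50) and MRPS27 (0.42) in 10 and MRPL14 (0.53), MRPS18A (0.45) and MRPS21 (0.30) in 12.

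The low members tended to have more exons, a feature compared after the data were seen. In sub-population 10 the 41 measured members with 5 or more exons had a median of -0.53, with 20 called lower, and the 32 with up to 4 exons one of 0.00, with 4 called lower. In sub-population 12 the medians were -0.41 and -0.22, with 18 and 4 called lower. Over the 73 members Spearman's rho of the difference with exon number was -0.52 in 10 and -0.28 in 12, as a description across genes. Among other genes the medians were 0.00 for 5 or more exons and 0.20 for up to 4 in sub-population 10, and 0.04 and 0.12 in 12. In sub-population 10, 764 of 5859 other genes with 5 or more exons were called lower, and 61 of 1322 with up to 4. In 12 these were 783 of 5887 and 102 of 1324, so other genes with more exons were also called lower more often. Proteasome genes summed to 3934 CPM in 10 and 3452 CPM in 12, against 7182 to 8652 CPM in 0 to 7, and their part in the result was not tested. In the table of uncorrected counts the members' medians were -0.01 and 0.07, against 0.12 and 0.20 over all genes, with 11 and 3 members called lower and 5 and 9 called higher. Of all genes in that table, 7.34% in 10 and 3.9% in 12 were called lower and 18.3% and 16.6% higher. In it MRPL47 had -0.80 in 10 and -0.48 in 12, MRPL13 -0.64 and -0.25, and MRPS22 -0.84 and -0.46. The size of the differences in 10 and 12 thus rests on the corrected table, and the exon groups were compared in that table.

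**Figure D4:**
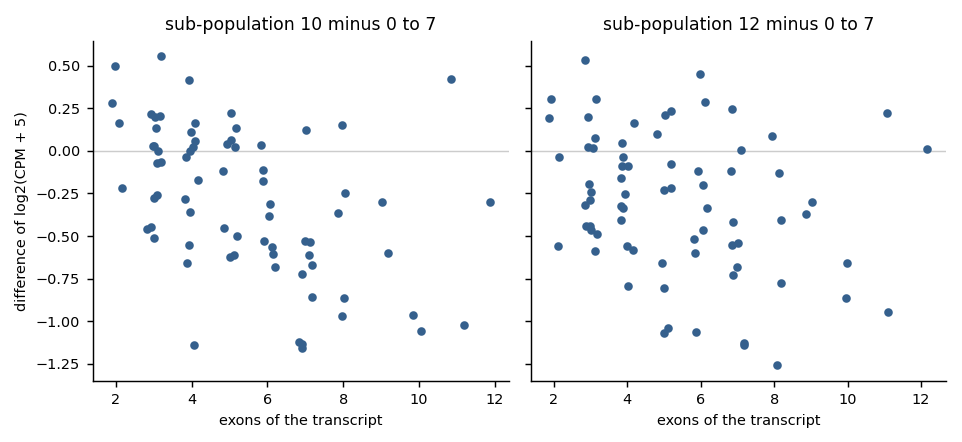
Difference of each of the 73 measured genes from sub-populations 0 to 7 (vertical axis, log2) by the number of exons of its GENCODE 44 transcript (horizontal axis, points spread sideways for clarity), for sub-populations 10 and 12. Genes with many exons lie lower, with medians of -0.53 and -0.41 for 5 or more exons.

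Sub-population 18, the smallest, had a summed level of 6182 CPM (interval 6062 to 6304), below all of 0 to 7. In the table of uncorrected counts it had 8753.5 CPM, just above sub-population 0 (8728.4 CPM). In the corrected counts 30 of 73 members were called lower and none higher, where 18.4% of all measured genes were lower and 8.73% higher. The median was -0.42 against -0.08. MRPL50 had 34.4 CPM in sub-population 18, against 71.4 to 113 CPM in 0 to 7, or -1.26. MRPL1 had 19.04 CPM against 40.6 to 56.2 CPM, MRPS34 137 CPM against 261 to 302 CPM and MRPL12 173 CPM against 302 to 433 CPM. At the high end, MRPL10 had 0.35, MRPS21 0.32 and MRPS18A 0.18. The ratio of large to small subunit was the lowest of all, 2.04. For cytosolic ribosomal protein genes the median was 0.35, and 11 of 83 were called higher and 1 lower, against the same 8.73% and 18.4% of all genes. G2/M genes had the lowest sum of any sub-population, 1148 CPM, and the members had the lowest ratio to oxidative phosphorylation genes, 32.4%.

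Sub-population 15 split in both directions, with 6 members called higher and 7 lower, where 22.6% of all measured genes were higher and 10.1% lower. MRPL10 had 73.2 CPM (interval 63.9 to 83.5), against 17.4 to 34.5 CPM in 0 to 7, a difference of 1.43. MRPL49 (0.87), MRPS18A (0.81), MRPL33 (0.80), MRPS31 (0.76) and MRPS30 (0.58) were also higher. MRPL16 (-0.79), MRPL24 (-0.74) and MRPL3 (-0.71) were lowest. The median was -0.06, against 0.08 over all genes.

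In sub-population 11, 1 member was called higher and 2 lower, where 5.12% of all measured genes were higher and 4.88% lower. MRPL32, of the large subunit, had 77.9 CPM (interval 71.4 to 84.9), against 33.2 to 49.8 CPM in 0 to 7, a difference of 0.79, and its 20 neighbours had a median of -0.24. MRPS18C (-0.65) and MRPL20 (-0.62) were lower, with 125 CPM of MRPL20 against 170 to 255 CPM. MRPS7 had -0.48, MRPL33 0.44 and MRPL14 0.29.

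Sub-populations 13 and 14, whose cells were shallow, had the highest summed levels, 9585 and 10297 CPM, along with low shares of mitochondrially encoded transcripts, 8.999% and 6.72%. In 13, 2 members, MRPL35 (0.60) and MRPS22 (0.54), were called higher and 14 lower, where 4.58% of all measured genes were higher and 47.3% lower. In 14, 7 were higher, MRPS33 (0.69), MRPL54 (0.62) and MRPL52 (0.59) the most, and 10 lower, where 5.38% of all measured genes were higher and 50% lower. The medians were 0.19 and 0.28, against -0.51 and -0.52 over all genes. MRPS31 had 9.68 CPM in sub-population 14, against 29.3 to 43.1 CPM in 0 to 7, or -1.46, followed by MRPL16 (-1.18) and MRPL24 (-1.03). In 13 the lowest values were those of MRPS14 (-1.06), MRPL39 (-0.96) and MRPL49 (-0.95), and MRPL9 had 0.58. Members of higher mean level had more positive differences (rho 0.35 in 13 and 0.55 in 14 over 73 members), and in the uncorrected table the medians were -0.88 and -0.71, so that directions in these sub-populations rest on the table used.

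In sub-population 16, mitochondrially encoded transcripts took 70.9% of all counts, and all 73 members were called lower, where 95.5% of all measured genes were lower and 0.239% higher. The median was -1.22, against -1.38 over all genes. MRPS14 and MRPL39 had 0 corrected UMIs in sub-population 16, which allows a level of up to 1.09 CPM (3 counts) if these are taken as molecules counted. The relative uncorrected depth was 0.514 there, so this limit is too low. MRPL24 (-2.71) and MRPL48 (-2.57) were lowest of the others, and MRPS5 (-0.51), MRPL42 (-0.64) and MRPS33 (-0.71) had the smallest differences. With mitochondrially encoded genes left out of the total, the members' median was 0.23 and their summed level was 12372 CPM, against 9816 to 11389 CPM in 0 to 7. Sub-populations 9 and 17 had no member called higher, 0 and 1 lower, and medians of 0.01 and -0.01, where 0.918% and 2.76% of all measured genes were higher and 0.243% and 0.782% lower. In 9, MRPS33 (-0.38), MRPL2 (-0.32) and MRPS18A (-0.29) were at the low end and MRPS9 (0.28), MRPS22 (0.24) and MRPL30 (0.22) at the high end. The member called in 17 was MRPL39, at -0.55, with 8.97 CPM against 12.6 to 18.6 CPM in 0 to 7. MRPL24 had -0.54 there and MRPL9 -0.39, and MRPS33 had 0.46, MRPL54 0.43 and MRPS11 0.32.

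**Figure D5:**
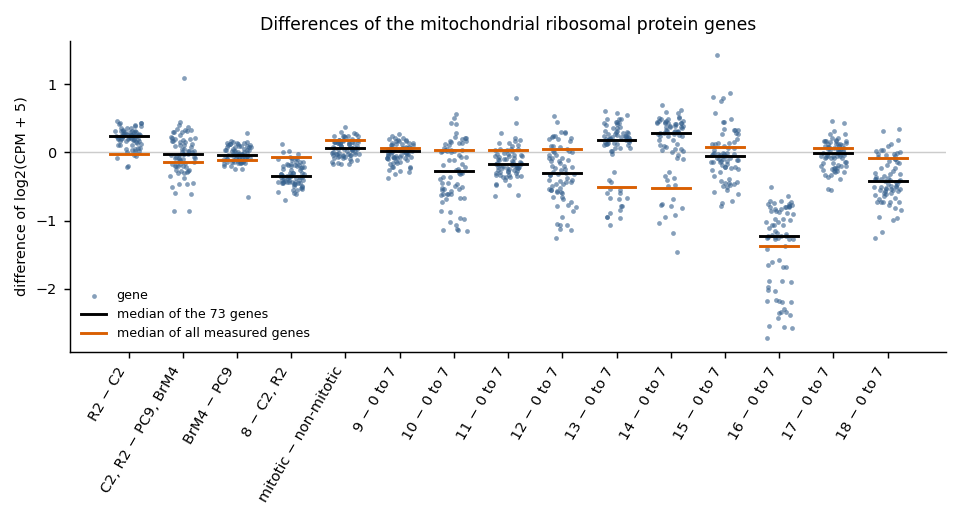
Differences of the 73 measured genes in log2(CPM + 5) (points) in each of 15 comparisons, with their median in black and the median of all measured genes in orange. The members lie above all genes in R2 against C2 (0.23 against -0.02) and below them in sub-population 8 (-0.35 against -0.06), 10, 12 and 18.

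The rest of the mitochondrial translation pathway was described from lists of its factors. Of 22 measured mitoribosome assembly factors, none was called higher and 1 lower in R2 against C2, GTPBP10, a GTPase of large subunit assembly, at -0.55, where 9.87% of all measured genes were lower. Against PC9 and PC9-BrM4, 3 of 22 were lower in C2 and R2, FASTKD2 (-0.77), NOA1 (-0.67) and MRM2 (-0.50), and none higher, where 10.7% of all genes were lower and 5.79% higher. In sub-population 8 the assembly factors had a median of -0.23, 20 of 22 had negative differences, and 2 were called lower, among them MRM3, an rRNA methyltransferase, at -0.67, where 6.01% of all genes were lower. Of 5 mitoribosome proteins with other symbols, AURKAIP1 had the highest level, 365 CPM over 0 to 7, and all 5 were below 0 in sub-population 8.

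Among 10 measured mitochondrial translation factors, the elongation factor GFM1 was lower in R2 against C2 (-0.51) and in C2 and R2 against PC9 and PC9-BrM4 (-0.58), while GFM2, which acts in ribosome recycling, was higher in the second comparison (0.85). Of 8 measured mitochondrial tRNA synthetases in that comparison 2 were lower, IARS2 (-0.66) and TARS2 (-0.66), and none higher, against the same 10.7% and 5.79% of all genes. LRPPRC, which stabilizes mitochondrial mRNAs, was lower in R2 against C2 (-1.08) and in C2 and R2 against PC9 and PC9-BrM4 (-1.06). Its partner SLIRP was higher in R2 against C2 (0.53) and had 0.02 in the other. In R2 against C2, 0.925% of all measured genes were called higher and 9.87% lower. Longer transcripts had more negative differences in that comparison, and the values of these single genes were not adjusted for length. The 13 mitochondrially encoded mRNAs themselves were all below 0 in R2 against C2, with a median of -0.31 and 5 called lower, where 9.87% of all genes were, while the members' median was 0.23. The mitochondrial percentage was a covariate of the authors' correction, which bears on the level of these transcripts.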

How the data were processed

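The authors made 10x Genomics 3′ libraries of 4 lines, counted UMIs with Cell Ranger on hg38, corrected them with sctransform in Seurat 3 with the mitochondrial percentage as a covariate, and clustered all cells together. They deposited 2 tables of means over the cells of 19 sub-populations, 1 of corrected UMIs per cell and 1 of uncorrected counts on another scale. The values of the second table read as the mean of e raised to the uncorrected count, minus 1. How it was made is not given in the sources used here, and every value called uncorrected rests on that reading. The number of cells per column is the smallest that turns every corrected mean into whole UMIs within 0.001. The corrected table was rescaled to 1000000 per column (CPM). On the reading above, the means of the uncorrected table were turned into counts under a Poisson assumption, which makes them rise with the spread between cells. These counts were divided by the relative depth and by the corrected total of each column. CPM of the uncorrected table are therefore not shares of the uncorrected counts. 140 values of the uncorrected table had overflowed, none of a member.

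Differences are between group means of log2(CPM + 5). Calls needed a mean of 10 CPM, a difference of 0.5 and groups that did not overlap. In the mitotic comparison all 4 within-line differences needed the same sign, and smaller sub-populations had to lie outside the range of 0 to 7. No test was applied, as columns are not replicates. The calls were tested on simulated counts of the R2 and C2 columns only, with Poisson spread. That simulation holds no spread between cultures or libraries, so it cannot show errors from these. Alternatives were the uncorrected table, other pseudocounts, filters, thresholds and totals, an adjustment for transcript length, centring on all genes, subtraction of neighbours, and leaving out each sub-population or line in turn. Doublets were not assessed. Named genes are, among measured members, the 5 highest and 5 lowest of each main comparison, the 3 highest and 3 lowest of each smaller sub-population, the 5 highest and 5 lowest levels, stalk, decoding and MRPS18 genes, MetRes members and members that share a chromosomal block. Of other lists a few genes are named, chosen after their values were seen. The members and lists were chosen with earlier results of these data known. Gene positions, lengths and exons come from GENCODE 44, which matched 15802 symbols and all members, and promoters from RefSeq. Python 3 with pandas, SciPy and matplotlib was used.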

Additional observations from a re-analysis of the deposited data

How the results depend on the processing

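No paired analysis was possible because each line has 1 library and no result comes from a test. Values below are medians of the members' differences, or counts of members called, with the reported value first. Where no share of all genes is given for a setting in the results above, the count cannot be set against other genes. Such a count shows only how the calls move with the processing and is no result about the members. For R2 against C2 the median of 0.23 was 0.38 in the uncorrected table, 0.245 and 0.20 with a pseudocount of 1 and of 20, 0.28 without rescaling, 0.18 and 0.31 when rescaled without mitochondrially encoded and without cytosolic ribosomal protein genes, 0.0504 when adjusted for length, and 0.26 when centred on all genes. The 0 members called higher became 17 in the uncorrected table, 1 without rescaling, 5 without cytosolic ribosomal protein genes and 1 when adjusted for length. Leaving out 1 sub-population at a time gave medians of 0.16 to 0.28 and 0 to 6 members higher, the 6 without sub-population 1.

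For C2 and R2 against PC9 and PC9-BrM4 the median of -0.03 lay near 0 and changed sign with the scale. It was -0.17 in the uncorrected table, 0.015 with a minimum of 50 CPM, -0.0545 without rescaling, 0.0016 without mitochondrially encoded and -0.04 without cytosolic ribosomal protein genes, -0.0053 when adjusted for length, 0.11 when centred and 0.10 with neighbours subtracted, and -0.0989 to 0.0357 with a sub-population left out. The 1 member higher became 2 when adjusted for length, 4 when centred, 4 with neighbours subtracted, and 1 to 2 with a sub-population left out. The 5 lower became 3 with a pseudocount of 20, 0 at a difference of 1, 2 when centred and 0 with neighbours subtracted, where MRPS21 turned to 0.0677.

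For PC9-BrM4 against PC9 the median of -0.03 was -0.25 in the uncorrected table, -0.0188 with a minimum of 50 CPM, -0.0725 without rescaling, 0.0004 without mitochondrially encoded and -0.0076 without cytosolic ribosomal protein genes, 0.0719 when adjusted for length, 0.0763 when centred, and -0.0738 to 0.0178 with a sub-population left out. The 1 member lower became 8 in the uncorrected table and 0 with a pseudocount of 20, a minimum of 50 CPM, which removes MRPS14, or a difference of 1.

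For sub-population 8 the median of -0.35 was -0.0833 in the uncorrected table, -0.37 and -0.26 with a pseudocount of 1 and of 20, -0.32 without mitochondrially encoded and -0.33 without cytosolic ribosomal protein genes, -0.26 when adjusted for length, -0.29 when centred, and -0.38 to -0.27 with a sub-population left out. The 9 members lower became 3 in the uncorrected table, with 8 higher, 5 with a pseudocount of 20, 0 at a difference of 1, 3 when adjusted for length and 4 when centred, and 7 to 15 with a sub-population left out, the 15 without sub-population 4. MRPL12 (0.16), MRPL13 (0.0546), MRPL18 (0.42) and MRPL22 (0.75) turned positive in the uncorrected table. The mitotic median of 0.06 was 0.31 in the uncorrected table, with 10 members higher, 0.0561 with a pseudocount of 20, 0.0298 with a minimum of 50 CPM, 0.13 without rescaling, 0.0529 and 0.0409 without mitochondrially encoded and without cytosolic ribosomal protein genes, -0.0506 when adjusted for length and -0.12 when centred, and 0.0440 to 0.0830 with a line left out.

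In the uncorrected table MRPL35 (-0.76), MRPL9 (-0.86) and MRPS22 (-0.77) turned negative in sub-population 13, as did MRPL52 (-0.30) and MRPL54 (-0.12) in 14. In sub-population 16 the median turned to 0.23 without mitochondrially encoded genes, 0.0638 when adjusted for length and 0.15 when centred. MRPL42 became 0.81, 0.45 and 0.74, MRPS33 0.73, 0.71 and 0.67, and MRPS5 0.95, 0.99 and 0.87 under these 3 settings. Centring and the subtraction of neighbours were chosen after seeing the data. Apart from what the construction of a setting shows, the cause of these changes was not tested. Depth limits the low members of 9 to 18, where MRPS14 and MRPL39 had 0 UMIs in sub-population 16.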
